A study of Homo sapiens with 6 samples.

Results

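The 10 genes of the COPII coat and its GTPase were followed in PANC-1 cells treated with the compound labelled CMR. They are SEC23A, SEC23B, SEC24A, SEC24B, SEC24C, SEC24D, SEC31A and SEC13 of the coat, and SAR1A and SAR1B, which encode the small GTPase SAR1. They were picked out by gene symbol from the 58825 genes of the deposited table. The set was chosen with earlier results of these data known, so counts of its members describe this set only. Each symbol had a single row, and all 10 genes were among the 19200 that passed the filter on low counts. PANC-1 is an established human pancreatic ductal carcinoma line. The study compared 3 libraries of PANC-1 cells kept with 8 µM CMR for 48 h and 3 libraries of PANC-1 control cells, and all libraries were made after poly(A) selection. What control cells were given is absent from the labels, as is any statement that replicate libraries are separate cultures. The p-values reported therefore cover library-to-library spread, which may be technical.

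COPII is the coat that buds vesicles from the endoplasmic reticulum (ER) and carries newly made secretory and membrane proteins toward the Golgi. SAR1 with bound GTP inserts into the ER membrane and recruits the inner coat, a dimer of SEC23, which stimulates GTP hydrolysis by SAR1, and SEC24, which binds cargo. SEC13 and SEC31 then assemble the outer cage. Several subunits have paralogs in human cells. The SEC24 paralogs form a pair of subfamilies by sequence, SEC24A with SEC24B and SEC24C with SEC24D, which differ in the cargo signals they bind. Secretory cells are known to raise COPII genes in the unfolded protein response, the signalling that follows an overload of the ER.

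CMR-treated cells held more mRNA for 7 of the 10 genes, SEC24D, SEC24A, SEC13, SAR1B, SEC23A, SEC23B and SEC31A, and for none of them less. SEC24D was 8.73-fold and SEC24A 5.70-fold higher, while the other 5 rose 2.30-fold to 3.03-fold. Their subfamily partners SEC24B and SEC24C did not pass the test, nor did SAR1A. Calls were made by edgeR's quasi-likelihood test at a Benjamini-Hochberg adjusted p under 0.05 over all tested genes. Over all 19200 genes, 20.5% were called higher and 18.1% lower with CMR, 38.6% in all. The CPM ranges of the groups did not overlap in 7 of the 10 members, with CMR higher in each, as in 27.3% of all tested genes. With upper-quartile scaling, which shifted the median log2 fold change of all genes from -0.01 to -0.14, 3250 genes were called higher and 4324 lower, where the main scaling gave 3928 higher and 3476 lower. All 7 called members rose at least 2-fold, and 9.87% of tested genes were called higher with a rise of that size. The median log2 fold change was 1.35 over the 10 members and -0.01 over all tested genes. None of the 10 was called lower also by DESeq2 or by limma on FPKM values, and the lowest unadjusted p of a member with a negative log2 fold change was 0.870, that of SEC24C. Bulk RNA cannot separate a change per cell from a change in the share of cells that carry an mRNA.

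**Figure D1:**
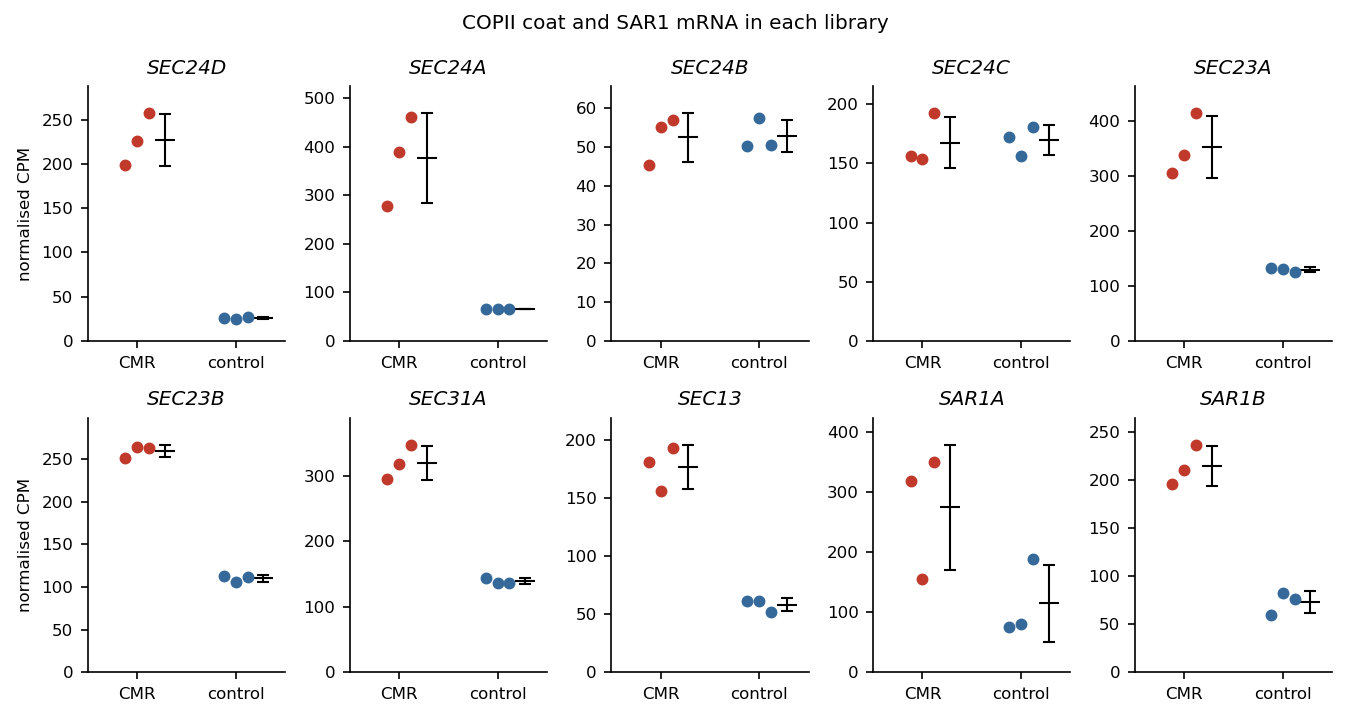
Normalised CPM (counts relative to the scaled library total, vertical axis from 0) of the 10 genes in each library, 3 CMR libraries in red left of 3 control libraries in blue. Bars show the mean ± SD. The CMR points lie above all control points in 7 panels and overlap with them for SEC24B, SEC24C and SAR1A.

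Letters of sequence near annotated transcription starts are shown because 3 of the genes that rose, SEC24A, SEC23A and SEC13, share a short motif there. All of the 10 genes except SEC24D had at least 1 window in RefSeq's promoter set (250 bases before to 50 after an annotated start, build GRCh38.p14). Windows were searched on both strands for the ER stress elements ERSE (CCAAT and CCACG with 9 bases between) and ERSE-II (ATTGG and CCACG with 1 base between), the unfolded protein response element UPRE (TGACGTGG), its first 7 letters alone (TGACGTG), the ATF4 site CARE (TGATGNAA) and the cyclic AMP element CRE (TGACGTCA). TGACGTGG was found in SEC24A, from position -179 to -172 relative to the start, and in SEC23A, across the start. It was present in 0.729% of all 35116 windows. TGACGTG, which each such match contains, was found in these genes and, on the opposite strand, in SEC13, and was present in 1.97% of all windows. It was absent from the windows of SEC23B, SEC31A and SAR1B, which also rose, and of SEC24B, SEC24C and SAR1A, which were not called. The 9 genes had 14 windows, so a count of genes is not alike in unit to a share of windows. ERSE, ERSE-II, CARE and CRE were found in none of the windows of these 9 genes, against 0.0769%, 0.0541%, 3.62% and 1.85% of all windows. A match of letters is a description of the window and not evidence of binding. In the 30-base stretches below, written 5′ to 3′ on each gene's strand, capitals mark TGACGTG or its reverse complement. The stretches lie at chr5:134648595-134648624 (plus strand, SEC24A), chr14:39103221-39103250 (minus strand, SEC23A) and chr3:10321237-10321266 (minus strand, SEC13). Annotated untranslated sequence of SAR1B covers all 30 bases of the SEC24A stretch. In the SEC23A stretch, annotated untranslated sequence of SEC23A itself covers 8 to 30 bases. That stretch lies inside the deposited span of SEC23A, which reaches 39103652.
SEC24A: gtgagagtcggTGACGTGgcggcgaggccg
SEC23A: tcccctcctctTGACGTGgcagaggcggcg
SEC13: ctctggtctcgCACGTCActggaggatagg

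The SEC24 cargo adaptors held both the members that moved most and those that moved least. SEC24D (ENSG00000150961, chromosome 4, 118722823 to 118838683, minus strand, in the deposited coordinates) is the adaptor whose mutations cause a skeletal disorder with bone fragility. It had 199, 226 and 257 CPM in the CMR libraries, against 26.0, 24.9 and 27.2 CPM in the control libraries. Every CMR library lay far above every control library, and the controls lay within a narrow band. The log2 fold change was 3.13 ± 0.12 (SE, edgeR adjusted p = 2.7e-05), a rise exceeded by 1.31% of all tested genes. SEC24A (ENSG00000113615, chromosome 5, 134648785 to 134727909, plus strand) is a cargo adaptor of the coat and the closest paralog of SEC24B. It had 278, 390 and 462 CPM with CMR, against 65.5, 66.6 and 66.0 CPM in control. The CMR libraries spread more than the control libraries, and the groups did not overlap. Its log2 fold change was 2.51 ± 0.18 (SE, edgeR adjusted p = 0.000139).

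SEC24B, an adaptor needed in mice for closure of the neural tube, had 45.3, 55.1 and 56.9 CPM with CMR, against 50.2, 57.5 and 50.5 CPM in control. SEC24C had 156, 154 and 192 CPM with CMR, against 173, 156 and 181 CPM in control. The groups overlapped for both genes. The log2 fold change was -0.01 for SEC24B (95% interval -0.29 to 0.28, edgeR adjusted p = 0.969) and -0.02 for SEC24C (95% interval -0.29 to 0.25, edgeR adjusted p = 0.912). The sign of the small value of SEC24B changed with DESeq2 and when some libraries were left out. That of SEC24C changed only when some libraries were left out. The deposited span of SEC24C overlaps 2898 bases of AC022400 on the opposite strand, which had 14.2% of the mean count of SEC24C and differed by 0.28 on the log2 scale (edgeR adjusted p = 0.315). How reads in overlapping spans were assigned is not stated in the sources used here.

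Within each SEC24 subfamily, 1 paralog therefore passed the test and the other did not, and the difference was measured directly as the log2 ratio of their counts inside each library. This ratio does not depend on how libraries were scaled. The ratio of SEC24A to SEC24B was 2.62, 2.82 and 3.02 in the CMR libraries, against 0.38, 0.21 and 0.39 in the control libraries, a difference of 2.49. The ratio of SEC24D to SEC24C was 0.35, 0.56 and 0.42 with CMR, against -2.73, -2.65 and -2.73 in control, a difference of 3.14. Per length, in the authors' FPKM values, the level of SEC24D was 0.734 ± 0.0543 of that of SEC24C with CMR and 0.0827 ± 0.00283 of it in control (SD, n = 3 each). Across the subfamilies, SEC24D gained on SEC24A as well, with log2 ratios of -0.48, -0.78 and -0.84 with CMR, against -1.33, -1.42 and -1.28 in control, a difference of 0.64. The ratios of SEC24D to SEC24B and of SEC24A to SEC24C differed by 3.13 and 2.50. In all 5 of these pairs the groups did not overlap. Each gave p = 0.1 in an exact two-sided permutation test, the smallest p that 3 against 3 libraries allow, and 0.16 adjusted over the 8 pairs compared. The design cannot reach 0.05 for such a ratio. These pairs share genes, so they are not separate results. Among single genes, 53.9% of those tested had CPM ranges without overlap in either direction, and no such share was computed for ratios.

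The remaining SEC24 pair kept its balance within the spread. The log2 ratio of SEC24C to SEC24B had a mean of 1.67 ± 0.17 in CMR libraries and 1.69 ± 0.22 in control libraries (SD, n = 3 each), and the difference was -0.01 (exact permutation p = 0.9, 0.9 adjusted over the 8 pairs). Single libraries of the groups differed by between -0.36 and 0.35. This range describes the spread of libraries and is not a detection limit, and a shift between these paralogs is not excluded.

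**Figure D2:**
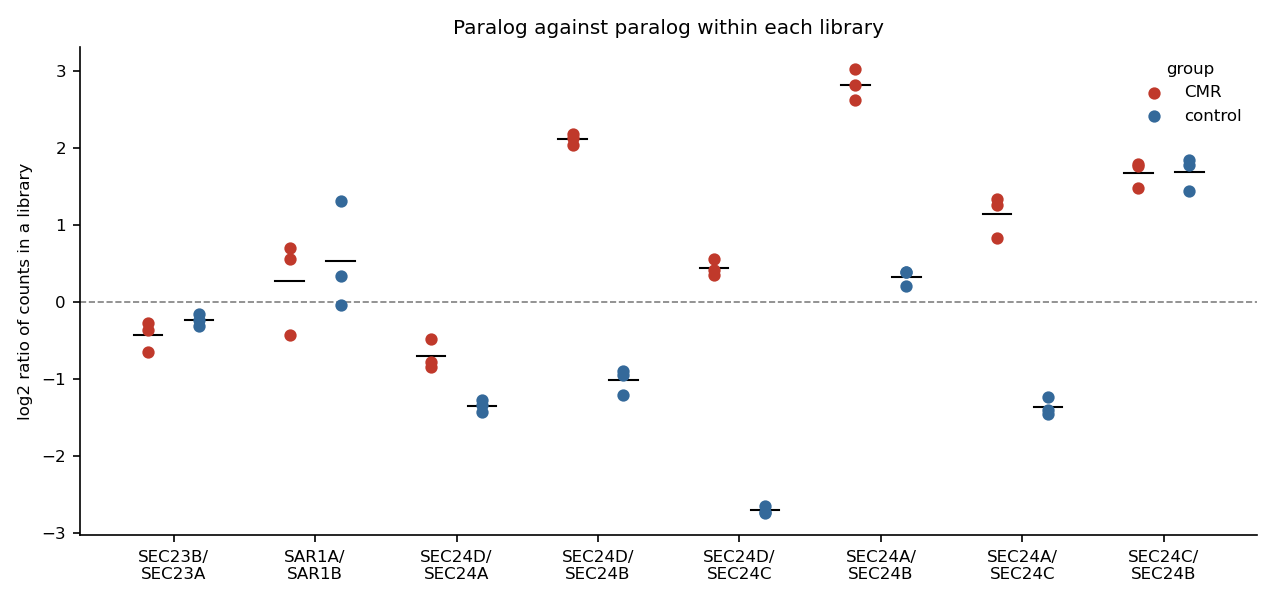
Log2 ratio of the counts of 2 paralogs inside each library (vertical axis), for the 8 pairs compared, with CMR libraries in red left of control libraries in blue and a bar at each mean. The 5 pairs that set SEC24D or SEC24A over another SEC24 gene are higher with CMR without overlap, by 0.64 to 3.14, and the groups overlap in the other 3 pairs. Those 5 pairs share genes and are not separate results.

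Expressed per length, as FPKM (fragments scaled to gene length and sequencing depth, as deposited by the authors), the make-up of the SEC24 family differed between the groups. SEC24C made up 30.4, 24.9 and 26.4% of the family's summed FPKM with CMR, against 60.3, 56.3 and 61.2% in control. SEC24A made up 39.7, 46.2 and 46.5% with CMR, against 16.8, 17.6 and 16.4% in control. SEC24A was thus the leading SEC24 mRNA in all 3 CMR libraries and SEC24C in all 3 control libraries. SEC24D made up 19.9 ± 0.91% with CMR and 4.89 ± 0.06% in control, and SEC24B 8.73 ± 0.63% with CMR and 18.9 ± 2.05% in control (SD, n = 3 each). The sum over the 4 SEC24 genes was 94.6 ± 14.7 FPKM with CMR and 46.2 ± 1.42 FPKM in control. The shares rest on the gene lengths used by the authors, which were inferred here from counts, FPKM and the summed counts of each library. The inferred lengths were a nearly constant 1.15 to 1.21 times the length of all annotated exons joined. That factor depends on the library total assumed. The lengths used may exceed those of the transcripts present.

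**Figure D3:**
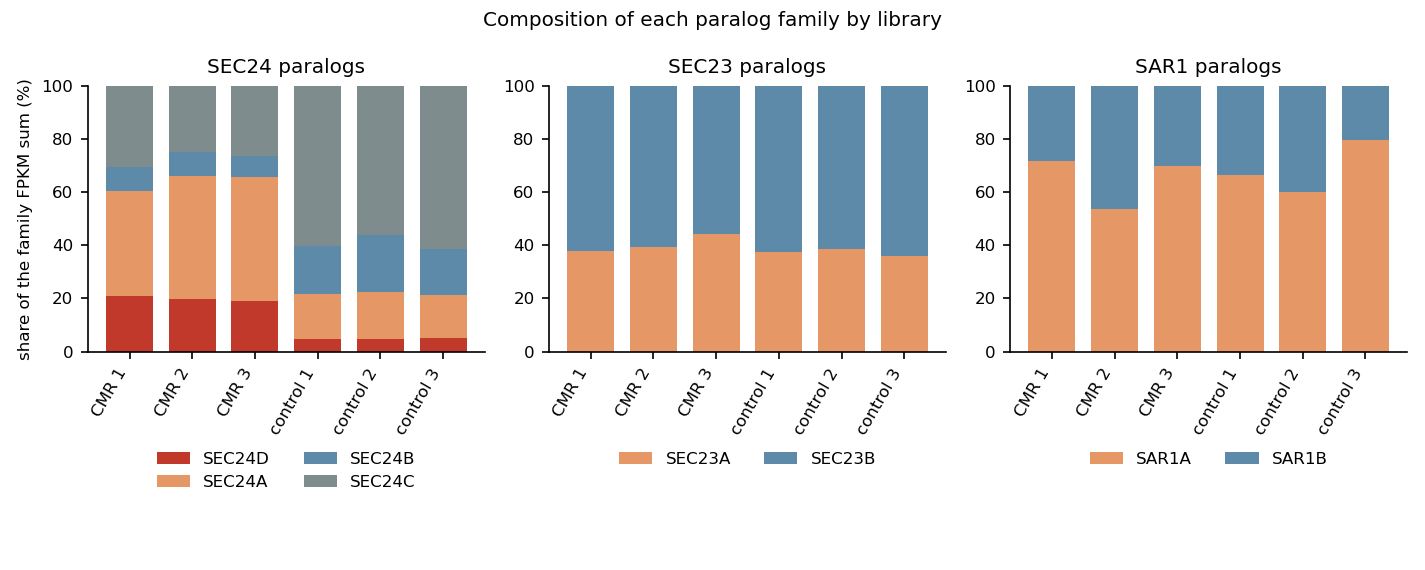
Share of the summed FPKM of a paralog family (vertical axis, percent) held by each paralog, in 3 panels for SEC24, SEC23 and SAR1, with the 3 CMR libraries left of the 3 control libraries. SEC24A and SEC24D together hold 60.5 to 66.0% of the SEC24 sum with CMR and 21.3 to 22.5% in control, whereas the shares of the SEC23 and SAR1 paralogs overlap between groups.

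The SEC23 paralogs, the GTPase-activating part of the inner coat, rose together. SEC23A, whose loss causes a craniofacial and skeletal disorder, had 304, 339 and 414 CPM with CMR, against 133, 131 and 125 CPM in control. The log2 fold change of SEC23A was 1.44 ± 0.12 (SE, edgeR adjusted p = 0.000239). SEC23B, whose loss causes a congenital dyserythropoietic anemia, had 252, 264 and 263 CPM with CMR, against 113, 106 and 112 CPM in control. The log2 fold change of SEC23B was 1.24 ± 0.07 (SE, edgeR adjusted p = 7.2e-05). Neither gene's groups overlapped. The log2 ratio of SEC23B to SEC23A had a mean of -0.43 ± 0.20 in CMR libraries and -0.23 ± 0.08 in control libraries (SD, n = 3 each). The difference of -0.20 was within the overlap of the groups (exact permutation p = 0.2, 0.267 adjusted over the 8 pairs), and single libraries differed by between -0.50 and 0.03. SEC23B remained the more abundant paralog per length in every library, with 48.4 ± 0.58 FPKM with CMR and 21.7 ± 0.71 FPKM in control, beside 33.2 ± 4.71 and 12.9 ± 0.46 FPKM for SEC23A. By counts SEC23A was the higher in every library, so the order per length rests on the gene lengths used by the authors.

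The outer cage genes rose as well. SEC13 (chromosome 3, 10293131 to 10321112, minus strand), which also serves in the nuclear pore and in the nutrient-sensing GATOR2 complex, had 181, 156 and 193 CPM with CMR, against 61.5, 61.6 and 52.2 CPM in control. Its log2 fold change was 1.60 ± 0.12 (SE, edgeR adjusted p = 0.000147). SEC31A (chromosome 4, 82818509 to 82900569, minus strand), the cage subunit that also speeds the SEC23 reaction, had 295, 318 and 348 CPM with CMR, against 144, 137 and 136 CPM in control. Its log2 fold change was 1.20 ± 0.09 (SE, edgeR adjusted p = 0.000138). Neither gene's groups overlapped. The deposited span of SEC31A shares 7561 bases with that of THAP9-AS1 on the same strand, which had 46.2% of the mean count of SEC31A and rose as well, by 1.52 on the log2 scale (edgeR adjusted p = 0.000846). The part of reads from that gene in the SEC31A value was not tested.

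SEC31B, a paralog of SEC31A that is not among the 10 genes, was scarce. It had 7.01, 6.29 and 5.23 CPM with CMR, against 8.66, 7.24 and 8.64 CPM in control. Its log2 fold change of -0.41 was not called (95% interval -0.82 to 0.01, edgeR adjusted p = 0.113). The CPM ranges of the groups did not overlap, with CMR lower, and 53.9% of all tested genes had ranges without overlap in either direction. Per length, SEC31A exceeded SEC31B 45.8 ± 10.7-fold with CMR and 14.7 ± 1.42-fold in control (SD, n = 3 each). SEC31A was thus the main SEC31 mRNA in both groups.

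The SAR1 GTPase genes differed in how steadily they were measured. SAR1B, whose mutations cause chylomicron retention disease, a failure of fat export from intestinal cells, had 195, 210 and 237 CPM with CMR, against 60.1, 82.3 and 76.1 CPM in control. The groups did not overlap, and the log2 fold change was 1.56 ± 0.14 (SE, edgeR adjusted p = 0.000290). SAR1A had 318, 156 and 349 CPM with CMR, against 76.1, 80.0 and 189 CPM in control. CMR replicate 2 was low and control replicate 3 was high, so the groups overlapped. The log2 fold change of SAR1A was 1.25 ± 0.43 (SE, 95% interval 0.24 to 2.27), with an edgeR adjusted p of 0.0559 that missed the threshold. The call appeared without CMR replicate 2 (log2 fold change 1.54, edgeR adjusted p = 0.0335) or without control replicate 3 (1.81, edgeR adjusted p = 0.0123). Leaving out any other single library lowered the log2 fold change to between 1.03 and 1.13 (edgeR adjusted p from 0.134 to 0.163). Without both, a choice made after seeing the data, the log2 fold change was 2.10 and 8 of 10 members were called higher (edgeR adjusted p = 0.00609 for SAR1A). The processed pseudogenes SAR1AP1 to SAR1AP4 had at most 7 counts in any library, against at least 3984 counts for SAR1A.

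The log2 ratio of SAR1A to SAR1B was 0.70, -0.43 and 0.56 with CMR, against 0.34, -0.04 and 1.31 in control. The groups overlapped and the difference of -0.26 was small beside the spread (exact permutation p = 0.6, 0.686 adjusted over the 8 pairs). Its sign turned without CMR replicate 2 (0.09) and without control replicate 3 (0.13), so these libraries give no direction for the balance of SAR1 paralogs. Single libraries differed by between -1.75 and 0.75.

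SAR1B and SEC24A are neighbours on opposite strands of chromosome 5, and both rose. In the deposited coordinates the span of SAR1B ends at 134649271, and shares 487 bases with the start of SEC24A at 134648785. The stretch of SEC24A printed above therefore lies inside the annotated span of SAR1B. Reads from the shared bases could not be assigned by strand here, since no source used here states the strandedness. The part of the shared bases in the value of either gene was not tested.

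**Figure D4:**
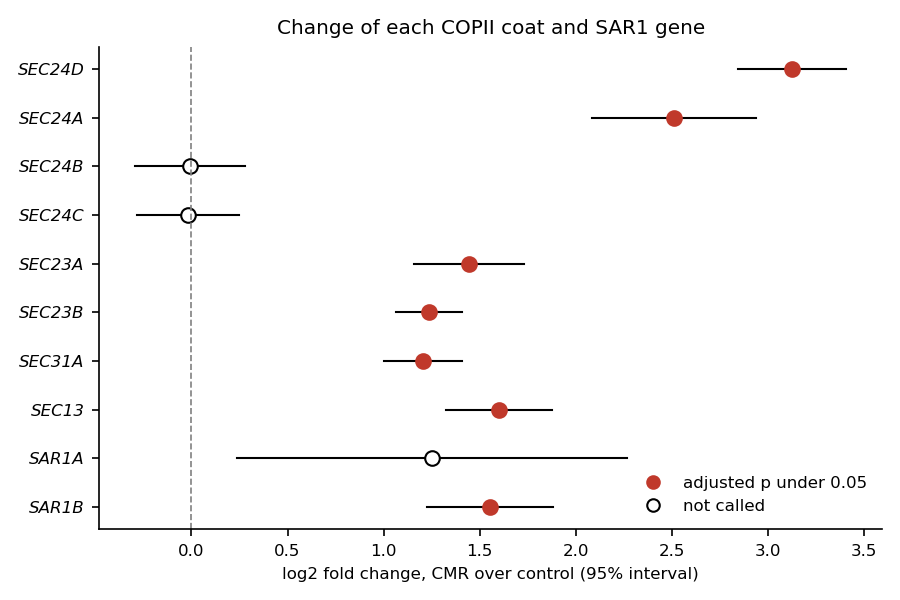
Log2 fold change of CMR over control (horizontal axis) with its 95% interval for each gene. Red points passed the test at an adjusted p under 0.05, and the open points of SEC24B, SEC24C and SAR1A did not. SEC24D and SEC24A stand at 3.13 and 2.51, the other called genes between 1.20 and 1.60, and SAR1A has the widest interval.

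The order of the genes by level per length also changed. With CMR, SEC23B was highest (48.4 ± 0.58 FPKM) and SEC24B lowest (8.20 ± 0.84 FPKM). In control, SEC24C was highest (27.4 ± 2.01 FPKM) and SEC24D lowest (2.26 ± 0.10 FPKM). Among CMR libraries, each gene from SEC23B down to SEC13 overlapped in range with the next in order, so these neighbours, down to SEC24C, are not resolved. The range of SEC23B overlapped with that of SEC24A and lay above those of the other members. Gaps without overlap separated SEC24C from SEC24D (18.7 ± 2.09 FPKM) and SAR1B (16.2 ± 1.30 FPKM) from SEC24B. This order rests on the gene lengths used by the authors. By counts, SEC24D lay above SEC24C in every CMR library, with means of 227.5 and 167.6 CPM. In control libraries, SEC24C lay above SEC23B (21.7 ± 0.71 FPKM) without overlap, and SEC24B, SEC24A (7.81 ± 0.07 FPKM), SAR1B (5.82 ± 0.92 FPKM) and SEC24D followed in that order, each separate from the next. SEC24A held the second rank with CMR, not resolved from its neighbours, and the eighth in control.

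Genes that act around the coat were listed with earlier results of these data known, so the counts describe the lists only. Of 15 tested regulators and scaffolds of COPII, 9 rose, 2 fell and 4 were not called, with a median log2 fold change of 0.92. Over all tested genes, 20.5% were called higher and 18.1% lower. MIA2 and MIA3, which form the TANGO1 family receptor that links bulky cargo such as collagen to the coat, rose 4.01-fold and 3.40-fold (edgeR adjusted p = 6.6e-05 and 0.000779). TMEM39A, a membrane protein of the ER, rose 3.89-fold. PREB, the exchange factor that loads SAR1 with GTP, had 58.9 ± 14.6 CPM with CMR and 31.3 ± 1.98 CPM in control (SD, n = 3; 1.89-fold, edgeR adjusted p = 0.00816). CREB3L2, a membrane-bound transcription factor that in mouse cartilage drives SEC23A, had 88.0 ± 57.2 CPM with CMR and 26.4 ± 1.36 CPM in control. Its call (edgeR adjusted p = 0.0453) was lost without any of the libraries except CMR replicate 1 (0.111 to 0.138) and with upper-quartile scaling (0.0558). The members that fell, named after their values were seen, were CREB3L1, a related factor at 1.26 ± 0.45 CPM with CMR and 3.57 ± 0.65 CPM in control, and CUL3, the scaffold of the ligase that ubiquitinates SEC31 (log2 fold change -0.58). KLHL12, the adaptor of that ligase and also named after its values were seen, was 1 of the 4 not called (edgeR adjusted p = 0.597).

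The machinery that receives COPII vesicles at the Golgi rose in 12 of 14 tested genes, with a median log2 fold change of 1.38. Over all tested genes, 20.5% were called higher and 18.1% lower. YIPF5, a Golgi membrane protein of this route, had 286 ± 37.3 CPM with CMR and 51.2 ± 0.77 CPM in control (SD, n = 3; 5.59-fold, edgeR adjusted p = 4.3e-05). The SNARE gene SEC22B rose 4.69-fold and its partner BET1 3.73-fold (edgeR adjusted p = 4.9e-05 and 0.000246), and YIF1A, a binding partner of YIPF5, rose 3.39-fold. The exceptions, named after their values were seen, were RAB1B, a GTPase of vesicle tethering that fell by 0.63 on the log2 scale (edgeR adjusted p = 0.00358), and the TRAPP tether gene TRAPPC3, not called (edgeR adjusted p = 0.750).

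Of 15 cargo receptors, 7 rose, 1 fell and 7 were not called, with a median log2 fold change of 0.37, where 20.5% of all tested genes were called higher and 18.1% lower. GOLT1B rose 3.23-fold and the p24 cargo receptor TMED2 2.65-fold. MCFD2 and LMAN1, which together export clotting factors, rose 3.10-fold and 2.06-fold (edgeR adjusted p = 0.000138 and 0.00107). ERGIC1, named after its values were seen, was the one that fell (log2 fold change -0.46, edgeR adjusted p = 0.00785).

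SEC13 was also set beside its partners outside COPII. Of 9 genes of the nuclear pore Y complex, 1 rose, 2 fell and 6 were not called, with a median log2 fold change of -0.0039. These shares are near the 20.5% called higher and 18.1% called lower among all tested genes. NUP107 and NUP85 fell (log2 fold changes -0.64 and -0.59, edgeR adjusted p = 0.00120 and 0.00259). NUP98 rose by 0.36 on the log2 scale, a call lost without CMR replicate 2 or any single control library (edgeR adjusted p from 0.0543 to 0.0742) and with upper-quartile scaling (0.0768). Of the 4 GATOR2 partners, WDR24 and MIOS rose 2.18-fold and 1.57-fold (edgeR adjusted p = 0.00475 and 0.0103), where 20.5% of all tested genes were called higher. The other 2, WDR59 and SEH1L, were not called, and SEH1L is also counted among the 9 nuclear pore genes. The log2 fold change of SEC13, at 1.60, was larger than that of each of these partners, a difference that was not tested.

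**Figure D5:**
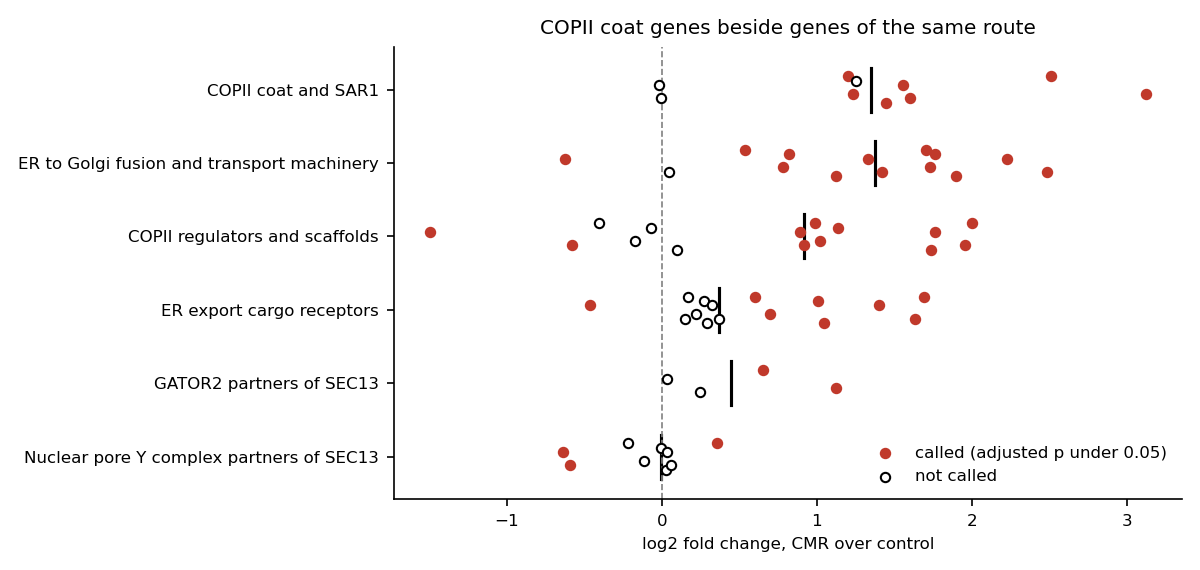
Log2 fold change of CMR over control (horizontal axis) for the tested genes of the COPII coat and of 5 lists around it, 1 point a gene, red where called and open where not, with a bar at each median. The medians are 1.35 for the coat, 1.38, 0.92 and 0.37 for the fusion machinery, the regulators and the cargo receptors, and 0.45 and -0.0039 for the GATOR2 and nuclear pore partners of SEC13.

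The gene whose levels over the 6 libraries most resembled those of SEC24D, the member with the largest change, was EIF2AK3, which encodes the ER stress sensor PERK, with a root mean square difference of 0.10 in mean-centred log2 CPM. It had 162 ± 30.0 CPM with CMR and 19.8 ± 0.86 CPM in control (SD, n = 3). F2RL2, a thrombin receptor gene, and ZNF222, a zinc finger gene, came next at 0.10 and 0.14, among 6069 protein-coding genes averaging at least 5 FPKM. With 6 libraries in 2 groups, this likeness is mainly a like change with CMR.

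Library totals ran from 66460535 to 70129221 counts with CMR and from 51147268 to 63811430 in control, so all CMR libraries were deeper than all control libraries. Readouts of the unfolded protein response were higher with CMR, 11.5-fold for HSPA5, 7.33-fold for XBP1, 5.86-fold for DDIT3 and 2.54-fold for ATF4. The duct and PANC-1 markers KRT8, KRT18, KRT19 and VIM were abundant in every library, at 7150 counts or more. Others of that list were scarcer, with 171 to 352 counts for KRT7, 224 to 838 for MUC1 and 789 to 6312 for SOX9. Of the 7 markers, 6 were called lower with CMR, where 18.1% of all tested genes were, and 1, SOX9, was not called. Of 11 markers of immune, endothelial, islet, acinar and liver cells, 3 passed the filter, and all 11 summed to 34 to 54 counts in a CMR library and 20 to 50 in a control library. CD3E, INS, GCG and CPA1 were at 0 in all libraries. PRSS1, an acinar trypsinogen gene, was called higher at no more than 17 counts in a CMR library and 0 in every control library.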

How the data were processed

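Libraries of poly(A)-selected RNA, 3 CMR and 3 control, were sequenced in paired-end mode, per the labels. The deposited table holds whole-number counts without normalization and FPKM values, which the authors scaled for length and depth. HISAT2 2.0, StringTie 1.3.0 and Bowtie 0.12.2 appear in the submitters' processing notes, as does mm8, a mouse build. Identifiers in the table are those of human genes, and 81.2% of 58552 genes matched to GENCODE 29 have identical GRCh38 coordinates (3 of the 10 members, the rest differing at an end by at most 5994 bases), so coordinates were read as GRCh38. The sources used here state neither the counting method nor the strandedness.

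Counts were tested with edgeR 4.0.16 (R 4.3.3): filterByExpr (minimum count 10, minimum total 15), TMM scaling, quasi-likelihood test, Benjamini-Hochberg adjustment over 19200 genes. CPM used the same factors. Intervals of 95% used the fit's degrees of freedom. Paralog ratios were log2 ratios of raw counts within a library, tested by exact permutation. Alternatives were other scalings, DESeq2 1.42.0, limma 3.58.1 on log2(FPKM + 1) and log2(FPKM + 0.1), no filter, a replicate block and leaving out libraries. Members and lists were chosen with earlier results of these data known. Named genes were all members, SEC31B, PREB, up to 4 called genes per list with the largest change, 4 stress readouts and the 3 genes most like the leading member. Some further genes of the lists were named outside this rule, after their values were seen. Depth and 3 libraries per group set the precision. The table had 0 columns of no sample.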

Additional observations from a re-analysis of the deposited data

How the results depend on the processing

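The same 7 members were called higher and none lower under every scaling, filter and tool tried, with 8 called higher in the fit with the replicate block, without CMR replicate 2, without control replicate 3 and without both of these libraries, the added gene being SAR1A each time. Log2 fold changes ranged from 2.59 to 3.21 for SEC24D and from 2.26 to 2.68 for SEC24A. SEC24B, called in no fit, turned positive with DESeq2 (0.00846) and, over the fits that left out a library, ranged from -0.0742 to 0.0829. SEC24C, also never called, ranged from -0.134 to 0.0397 when a library was left out and was 0.0875 without CMR replicate 2 and control replicate 3. Leaving out a library moved the SAR1A to SAR1B ratio difference over -0.55 to 0.127 and that of SEC24C to SEC24B over -0.136 to 0.0843. The count of nuclear pore partners called higher was 0 with upper-quartile scaling and 0 to 1 when a library was left out. Without CMR replicate 2 and control replicate 3 together, it was 0, and 0 GATOR2 partners were called higher, 1 COPII regulator lower and 0 cargo receptors and 0 fusion genes lower; that fit has 2 libraries a group. TRAPPC3, whose value was near 0, was -0.0837 with upper-quartile scaling, -0.0263 without a composition factor, -0.0257 and -0.0272 with limma on FPKM (pseudocounts 1 and 0.1), and -0.0193 to 0.106 when a library was left out. CREB3L2 lost its call in 11 of 14 fits. The cause of these changes was not tested.

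With the replicate number as a block, SAR1A was called, at 1.30 on the log2 scale (edgeR adjusted p = 0.0162). Same-numbered libraries deviated together only weakly (r = 0.03, 0.04 and 0.05 over genes), though each correlated best with its own number, so they share a number and are not treated as pairs. The ratio differences under the block equal those reported, since the groups are balanced. For the paralog ratios, 3 libraries a group cannot give an exact p under 0.1.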
